A study of Mus musculus with 9 samples.

Results

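Toll-like receptors are sensors of microbial molecules, and the 10 genes described here encode 5 of these receptors, 2 coreceptors and 3 adaptors. They are Tlr2, Tlr4, Tlr7, Tlr9, Tlr13, Cd14, Ly96, Myd88, Ticam1 and Ticam2, taken by symbol from a fixed list. All 10 are present once each among the 12474 rows of the deposited tables, and all 10 passed the filter on low values. The study profiled RAW264.7 cells, a transformed mouse macrophage-like line, of wild-type genotype per the labels, in 9 RNA-seq libraries. Mock cells (3 libraries) are the reference. M1 cells (3 libraries) were exposed to LPS at 100 ng/ml with mouse interferon gamma at 50 ng/ml, the pair of stimuli used for M1 polarization. I cells (3 libraries) received the same pair at the same doses, with potassium iodide added at 20 mM while they polarized. The labels give no duration, and no group received another salt, so the iodide ion, the potassium ion and the added osmolarity cannot be told apart.

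A Toll-like receptor joins a leucine-rich ligand-binding region to an intracellular TIR domain, which recruits adaptor proteins carrying the same domain. Myd88 is the adaptor of nearly all these receptors and leads to NF-kB and MAP kinase signalling, whereas Ticam1 (TRIF) leads to interferon regulatory factors and serves Tlr3 and Tlr4. Macrophages bind LPS through Tlr4 with its partner Ly96, after Cd14 has delivered it, and bind bacterial lipopeptides through Tlr2. Tlr7, Tlr9 and Tlr13 sense single-stranded RNA, unmethylated CpG DNA and bacterial ribosomal RNA in endosomes.

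The libraries held 17431070 to 25470730 fragments, recovered from the FPKM values (fragment counts scaled to gene length and to the library's total). Pairs of libraries within a group correlated across genes at r = 0.9968 to 0.9973 (Pearson), and every pair differed by more than sampling noise. No label tells whether the replicates were grown as separate cultures, and the p-values therefore cover only the scatter among the deposited libraries, possibly technical. Of 10 macrophage markers all 10 were in the files, and their summed FPKM was 3976 to 4051 in Mock libraries, 1831 to 1890 in M1 libraries and 1158 to 1205 in I libraries. Lyz2 made up most of that sum (3155, 1138 and 675 FPKM on average), and 4 of the 10 markers had a higher mean in M1 than in Mock, among them Adgre1 (21.7 and 103 FPKM). Mertk, also counted there, was near the floor in Mock and M1 (0.0305 and 0.0321 FPKM on average), and its libraries overlapped. For other cell types, 1 of 5 B cell markers (Pax5, at most 0.053 FPKM), 1 of 5 T and NK cell markers (Lck, 3.29 to 5.26 FPKM) and 3 of 5 dendritic cell markers (summed at most 0.64 FPKM) were in the files. None of the neutrophil, fibroblast and epithelial markers listed was. The files hold no value of 0, so a marker missing from them need not have been undetected in every library. In bulk RNA, fewer expressing cells and less RNA per cell cannot be told apart. Differences were tested with limma on log2(FPKM + 1) over all 11156 genes that passed the filter and called where the p adjusted by Benjamini-Hochberg was below 0.05. The added 1 makes the changes of low genes look smaller than they are.

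M1 cells had less RNA of 4 of the 5 receptors and of the shared adaptor Myd88 than Mock cells, and more of Cd14 and Ticam1. In M1 against Mock, 6 of the 10 genes fell (Tlr2, Tlr4, Tlr7, Tlr13, Myd88 and Ticam2), 2 rose (Cd14 and Ticam1), and Tlr9 and Ly96 were not called. Over all genes tested, 85.8% were called, 30.5% as higher and 55.3% as lower, so the count of calls among these genes is near the background. The M1 and Mock libraries did not overlap for 8 of the 10 genes, 2 higher and 6 lower, beside 86.4% of all genes, 30.7% higher and 55.6% lower. The median of the 10 genes was −0.44 on the log2 scale, beside −0.23 for all genes. Median-of-ratios (RLE) scaling moves the median of all genes to 0.01 and the split of calls from 3405 higher and 6166 lower to 4810 and 4749. With RLE scaling 4 of the 10 genes were higher and 5 lower, and Ticam2 was called higher (0.14). Relative to the median gene, Tlr7 was at −2.23, Tlr2 at −2.08, Tlr4 at −1.73, Tlr13 at −0.64, Myd88 at −0.53, Ly96 at 0.12, Ticam2 at 0.13, Tlr9 at 0.30, Ticam1 at 1.25 and Cd14 at 1.27.

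With potassium iodide, Tlr2, Tlr7, Tlr13 and Myd88 rose above their M1 level, Tlr4 fell further and Cd14 fell back. In I against M1, 4 of the 10 genes rose, 3 fell (Tlr4, Cd14 and Ticam1), and Tlr9, Ly96 and Ticam2 were not called. The call of Ticam1 was lost under all 4 alternative scalings, which left 2 genes lower. Of all genes tested, 64.2% were called, 24.9% as higher and 39.3% as lower. The libraries of I and M1 did not overlap for 4 genes that were higher and 4 that were lower (Ticam2 added), beside 67.2% of all genes, 26.4% higher and 40.8% lower. The median of the 10 genes was −0.05, beside −0.07 for all genes. RLE scaling changed the split over all genes from 2775 higher and 4382 lower to 3478 and 3540. Relative to the median gene, Tlr13 was at 0.77, Tlr2 at 0.63, Myd88 at 0.51, Tlr7 at 0.50, Ticam2 at 0.05, Tlr9 at −0.02, Ticam1 at −0.05, Cd14 at −0.16 and both Tlr4 and Ly96 at −0.27. This comparison and the one against Mock use the same M1 libraries.

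**Figure D1:**
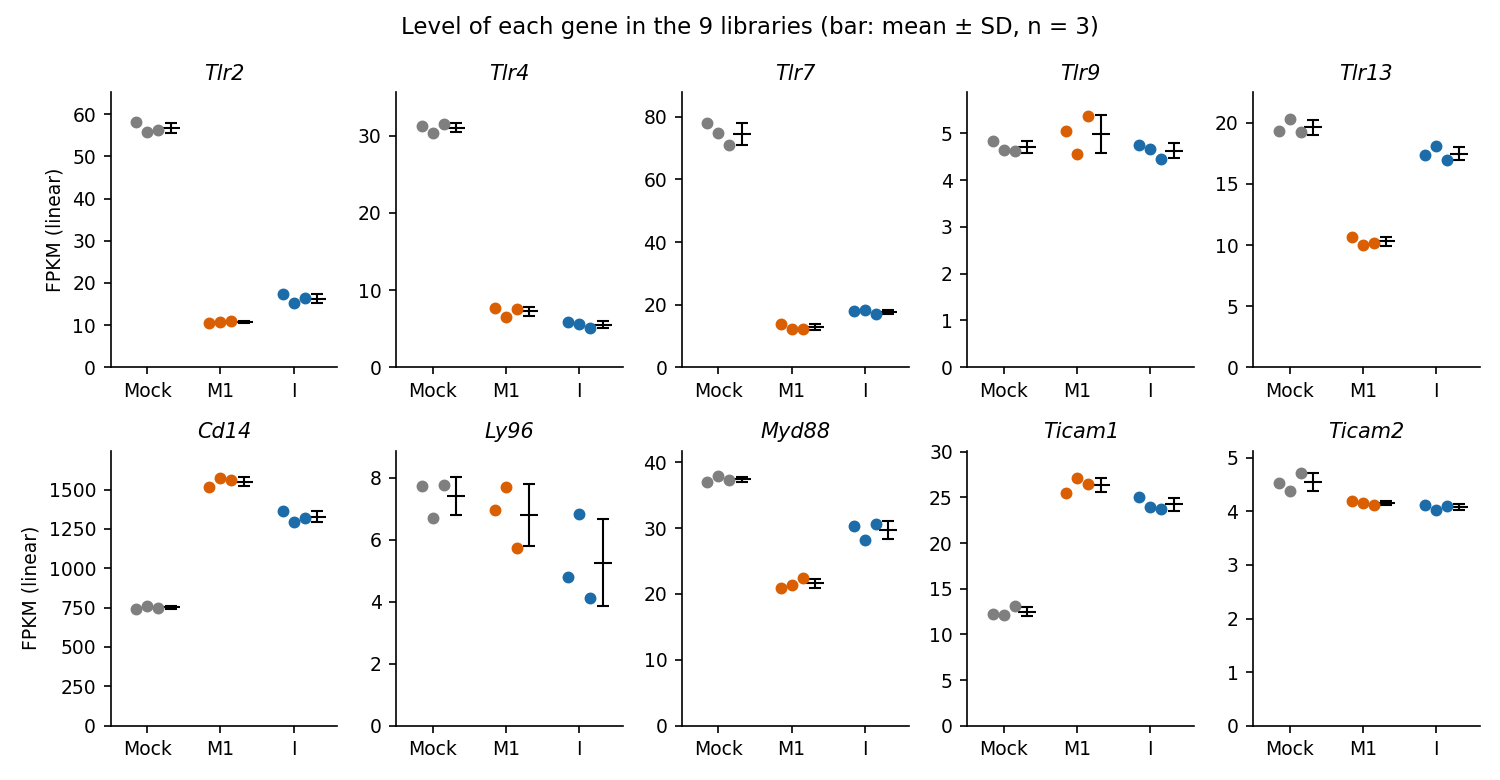
FPKM (linear axis from 0) of each of the 10 genes in every library, by group, with the mean ± SD (n = 3) beside the points. Tlr2, Tlr4 and Tlr7 sit far lower in both polarized groups than in Mock, Tlr13 and Myd88 are lowest in M1, and Cd14 and Ticam1 are lowest in Mock.

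The sequence before the start site is shown for the genes with an entry that changed most clearly in 1 direction or the other. Of the 10 genes, 5 had a promoter in the RefSeq table used here (build GRCm38.p6): Tlr2, Tlr9, Tlr13, Myd88 and Ticam1. Tlr4, Tlr7, Ly96, Cd14 and Ticam2 are not shown. The 250 bases before the start of Tlr2 (chr3:83841609-83841858, minus strand), Tlr13 (chrX:106143025-106143274, plus strand) and Myd88 (chr9:119340019-119340268, minus strand), which were lower in M1 than in Mock and higher in I than in M1, are set beside those of Ticam1 (chr17:56276768-56277017, minus strand), which went the other way. The RefSeq starts differ from those of the GENCODE models whose coordinates are given below: all 250 bases shown for Myd88 lie inside its GENCODE model, as do 159 of Tlr2, 71 of Tlr13 and 19 of Ticam1. Capitals mark matches to the motifs searched on both strands.
Tlr2: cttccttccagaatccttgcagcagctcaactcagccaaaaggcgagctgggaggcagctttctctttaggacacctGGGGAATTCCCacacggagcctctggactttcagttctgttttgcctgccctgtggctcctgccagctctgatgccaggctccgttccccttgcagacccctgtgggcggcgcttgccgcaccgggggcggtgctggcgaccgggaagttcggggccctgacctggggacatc
Tlr13: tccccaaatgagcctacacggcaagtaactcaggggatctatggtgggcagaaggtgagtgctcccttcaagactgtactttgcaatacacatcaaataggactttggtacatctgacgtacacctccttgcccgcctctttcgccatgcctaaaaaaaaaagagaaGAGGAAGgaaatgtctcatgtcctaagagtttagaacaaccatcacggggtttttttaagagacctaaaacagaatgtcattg
Myd88: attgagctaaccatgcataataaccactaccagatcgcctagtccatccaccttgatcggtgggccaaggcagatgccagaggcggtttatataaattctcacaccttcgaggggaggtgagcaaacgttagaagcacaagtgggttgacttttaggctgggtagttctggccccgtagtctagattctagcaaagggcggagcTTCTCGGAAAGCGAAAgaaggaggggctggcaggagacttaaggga
Ticam1: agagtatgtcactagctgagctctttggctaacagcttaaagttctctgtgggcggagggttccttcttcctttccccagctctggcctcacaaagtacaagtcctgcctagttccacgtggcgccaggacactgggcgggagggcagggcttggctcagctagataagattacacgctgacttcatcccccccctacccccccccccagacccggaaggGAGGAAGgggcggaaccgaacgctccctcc

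The motifs searched were the NF-kB consensus, the interferon-stimulated response element core, the gamma-activated site TTCNNNGAA, the AP-1 motif TGANTCA, the PU.1 motif GAGGAAG and the NFAT5 consensus (TonE). Tlr2 held 2 overlapping NF-kB matches, from 173 to 163 bases before the start. Myd88 held a gamma-activated site 46 to 38 bases before the start, which overlaps an interferon-stimulated response element core (GAAAGCGAAA) at 40 to 31 bases. Tlr13 and Ticam1 each held a PU.1 match, 83 to 77 and 30 to 24 bases before the start. Tlr9 held a PU.1 and an AP-1 match. Among all 32851 promoters in the table, 7.25% held the NF-kB consensus over the same length, 2.98% the response element core, 7.02% the gamma-activated site, 10.6% PU.1, 6.75% AP-1 and 4.31% TonE. The matches describe letters and say nothing of binding.

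Tlr2 (ENSMUSG00000027995.10, chromosome 3, 83836272 to 83841767), the cell-surface receptor for bacterial lipopeptides, stood at 58.1, 55.8 and 56.3 FPKM in the 3 Mock libraries. Its M1 libraries were at 10.4, 10.6 and 10.9 FPKM and its I libraries at 17.3, 15.15 and 16.4. The 3 groups did not overlap, with Mock highest and M1 lowest. From Mock to M1 Tlr2 fell 5.32-fold as a ratio of group means, by 2.31 ± 0.043 (SE) on the log2 scale (limma adjusted p = 2.03e-12), a change at least as large as that of 97.5% of genes tested. From M1 to I it rose 1.53-fold, by 0.57 ± 0.043 (adjusted p = 1.09e-06, limma), or 0.63 relative to the median gene. In I it was still 3.48-fold lower than in Mock.

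Tlr4 (ENSMUSG00000039005.13, chromosome 4, 66827584 to 66930284), the LPS receptor, was at 31.25, 30.4 and 31.6 FPKM in Mock, at 7.62, 6.52 and 7.54 in M1 and at 5.92, 5.555 and 5.05 in I. Again the groups did not overlap, but here I was lowest. The fall in M1 was 4.3-fold (log2 fold change −1.97 ± 0.061 SE, limma adjusted p = 9.38e-11). Unlike Tlr2, Tlr4 fell again with iodide, 1.31-fold (−0.34 ± 0.061, limma adjusted p = 0.000621), or −0.27 relative to the median gene. The lowest M1 library (6.52 FPKM) lay nearer to the highest I library (5.92 FPKM) than to the other M1 libraries.

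Tlr7 (ENSMUSG00000044583.13, X chromosome, 167304929 to 167330558), the endosomal receptor for single-stranded RNA, was the highest of the 9 Toll-like receptors in Mock. Its Mock libraries were at 78, 74.9 and 71.0 FPKM, its M1 libraries at 13.85, 12.3 and 12.2, and its I libraries at 17.9, 18.2 and 16.9. It had the largest fall among the 10 genes in M1, 5.84-fold (−2.46 ± 0.052, limma adjusted p = 4.87e-12), which is at least as large as the change of 98.0% of genes tested. With iodide it rose 1.38-fold (0.44 ± 0.052, limma adjusted p = 2.85e-05), and all 3 I libraries lay above all 3 M1 libraries.

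Tlr13 (ENSMUSG00000033777.4, X chromosome, 106143204 to 106160493), the mouse sensor of bacterial ribosomal RNA, showed the largest rise with iodide among the 10 genes. Its levels were 19.3, 20.3 and 19.3 FPKM in Mock, 10.7, 10.03 and 10.2 in M1, and 17.35, 18.1 and 17.0 in I. In M1 it fell 1.91-fold (−0.87 ± 0.038, limma adjusted p = 1.46e-09). In I it rose 1.7-fold (0.71 ± 0.038, limma adjusted p = 7.08e-08), or 0.77 relative to the median gene. Against Mock, I was lower by a called −0.16 ± 0.038 (limma adjusted p = 0.00198). That direction depends on the scaling, at 0.20 with RLE (limma adjusted p = 0.000415), 0.21 with TMM, 0.04 with upper-quartile and 0.03 with quantile scaling.

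Tlr9 (ENSMUSG00000045322.10, chromosome 9, 106222598 to 106226883), the endosomal DNA sensor, stood at 4.84, 4.65 and 4.62 FPKM in Mock, 5.04, 4.56 and 5.37 in M1 and 4.76, 4.66 and 4.45 in I. The 3 groups overlapped, and no comparison called it. The log2 difference was 0.07 in M1 against Mock (95% interval −0.05 to 0.19, limma adjusted p = 0.247) and −0.09 in I against M1 (−0.21 to 0.03, adjusted p = 0.172). The first of these is 0.30 relative to the median gene, and the 4 alternative scalings called Tlr9 higher in M1, by 0.21 to 0.43. Its values rest on 282 to 429 fragments per library.

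**Figure D2:**
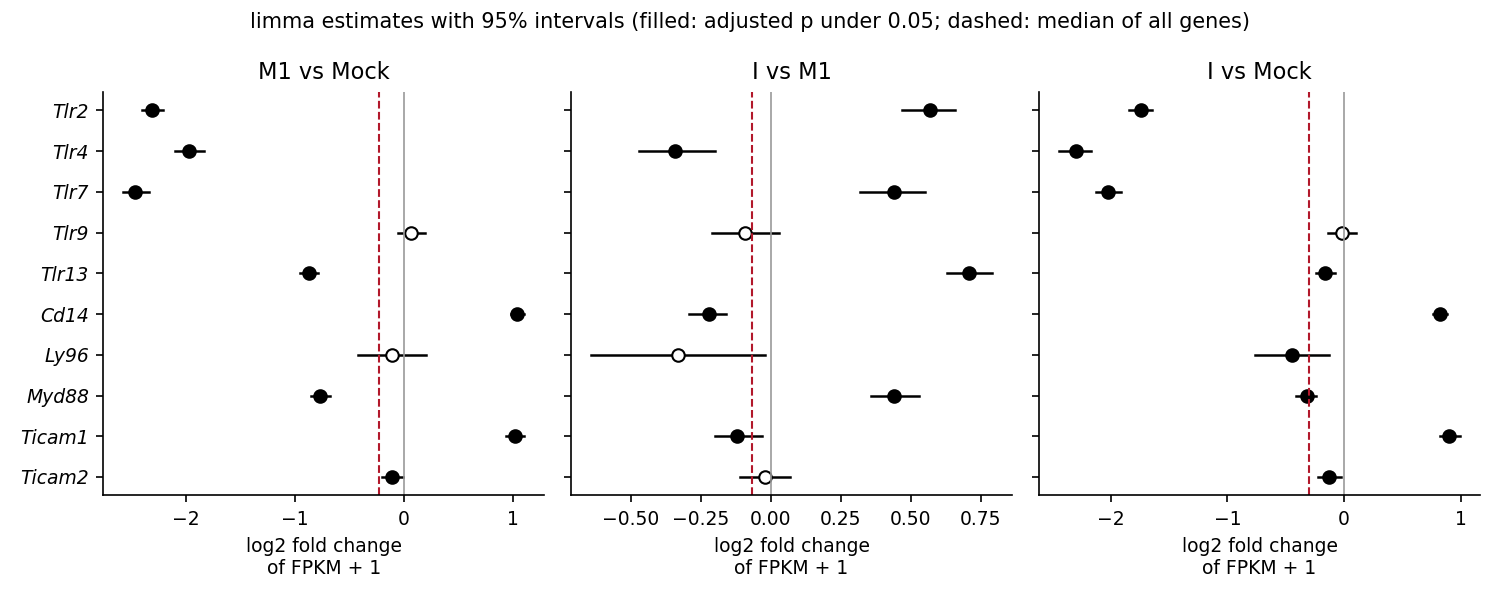
Log2 fold changes (FPKM + 1) of the 10 genes from limma with 95% intervals, in 3 comparisons whose horizontal axes differ. Filled points had an adjusted p under 0.05, and the dashed line is the median of all genes tested (−0.23, −0.07 and −0.30).

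Cd14 (ENSMUSG00000051439.7, chromosome 18, 36725067 to 36726798), which binds LPS at the cell surface and passes it to Tlr4 and Ly96, was by far the most abundant of the 10 transcripts per length. It stood at 744.5, 763 and 748 FPKM in Mock, at 1519, 1571 and 1560 in M1, and at 1365, 1297 and 1317 in I. All 3 groups were apart, with M1 highest. Cd14 rose 2.06-fold in M1 (1.04 ± 0.028, limma adjusted p = 2.88e-11) and fell in I to 1326 FPKM on average (−0.22 ± 0.028, limma adjusted p = 4.08e-05). It stayed 1.76-fold above Mock in I. Quantile scaling lowered the log2 rise in M1 to 0.48 and that of I over Mock from 0.82 to 0.17, both still called.

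Ly96 (ENSMUSG00000025779.10, chromosome 1, 16688051 to 16709611), the secreted protein that completes the LPS-binding pocket of Tlr4, varied most between libraries. Its values were 7.73, 6.69 and 7.765 FPKM in Mock, 6.94, 7.70 and 5.73 in M1, and 4.80, 6.82 and 4.12 in I. The groups overlapped in every comparison, and I replicate 2 lay among the M1 libraries. The difference of M1 from Mock was −0.11 ± 0.14 (limma adjusted p = 0.463), and that of I from M1 was −0.33 ± 0.14 (adjusted p = 0.0581). The latter was called without I replicate 2 (−0.51, adjusted p = 0.00231) and without M1 replicate 3 (−0.43, adjusted p = 0.0283). Fitting the recovered fragments by limma-voom called it too (−0.42, adjusted p = 0.0163). Ly96 has the fewest fragments of the 10 genes, 81 to 201 per library.

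Myd88 (ENSMUSG00000032508.8, chromosome 9, 119335934 to 119341411), the shared adaptor, was at 37.05, 37.8 and 37.3 FPKM in Mock, 20.95, 21.4 and 22.4 in M1 and 30.4, 28.1 and 30.6 in I. The groups did not overlap, and M1 was lowest. In M1 it fell 1.73-fold (−0.77 ± 0.037, limma adjusted p = 4.21e-09) and in I it rose 1.38-fold over M1 (0.44 ± 0.037, limma adjusted p = 2.4e-06). Its log2 difference of I from Mock was a called −0.32 (limma adjusted p = 7.85e-06), which is −0.02 relative to the median gene and was 0.04 with RLE (not called) and 0.06 with TMM scaling (not called). The gene model overlaps those of Acaa1a on the opposite strand and Slc22a14 on the same strand. The strand setting of the counting is not given in the sources used here, so reads from the overlap cannot be assigned with certainty.

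Ticam1 (ENSMUSG00000047123.8, chromosome 17, 56269319 to 56276786), which encodes TRIF, moved opposite to Myd88 in M1. It was at 12.2, 12.2 and 13.1 FPKM in Mock, 25.5, 27.1 and 26.5 in M1 and 25.05, 23.9 and 23.7 in I. Both polarized groups lay above all Mock libraries. Ticam1 rose 2.11-fold in M1 (1.02 ± 0.038, limma adjusted p = 4.1e-10). Its fall in I was small (−0.12 ± 0.038, limma adjusted p = 0.0204) and is −0.05 relative to the median gene. All 4 alternative scalings ended that call, with log2 values of −0.04 to −0.08, as did leaving out M1 replicate 2 (adjusted p = 0.0752), M1 replicate 3 (0.0535), I replicate 2 (0.0593) or I replicate 3 (0.0703).

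Ticam2 (ENSMUSG00000056130.10, chromosome 18, 46557291 to 46574533), which encodes TRAM, the bridge from Tlr4 to TRIF, had the smallest difference between I and M1 among the 10 genes. Its libraries were at 4.535, 4.39 and 4.72 FPKM in Mock, 4.19, 4.15 and 4.12 in M1 and 4.12, 4.02 and 4.11 in I. The difference of M1 from Mock was called at −0.11 ± 0.041 (limma adjusted p = 0.0326), while the 4 alternative scalings gave 0.04 to 0.27, called as higher in 3 of them, and leaving out a library ended the call in 4 of 9 cases. These were Mock replicate 1 (adjusted p = 0.0686), Mock replicate 3 (0.127), M1 replicate 2 (0.0638) and M1 replicate 3 (0.0747). Of the 9 cases, those without an I library leave the log2 value itself unchanged. With iodide Ticam2 differed by −0.02 (95% interval −0.11 to 0.07). Its gene model overlaps that of Tmed7 on the same strand.

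Relative to Mock, I cells had 7 of the 10 genes lower and 2 higher, with Tlr9 not called (86.8% of all genes tested were called, 28.2% as higher and 58.6% as lower). Without overlap of the I and Mock libraries were 2 genes that were higher and 6 that were lower, beside 87.1% of all genes, 28.5% higher and 58.6% lower. Tlr4, Tlr7 and Tlr2 were the furthest down, at −2.30, −2.02 and −1.74 on the log2 scale, and Ticam1 and Cd14 were up at 0.90 and 0.82. These 5 kept their direction and call under every alternative tried. Of the other calls, those of Tlr13, Myd88, Ly96 and Ticam2 do not hold under RLE scaling, where 5 genes were higher and 3 lower. With RLE Ticam2 was at 0.18 and Ly96 at −0.12, the latter not called.

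The order of the 5 receptors by FPKM, which is per length and so comparable between genes, differed between groups. In Mock it was Tlr7 (74.6 ± 3.5), Tlr2 (56.7 ± 1.2), Tlr4 (31.1 ± 0.63), Tlr13 (19.6 ± 0.61) and Tlr9 (4.70 ± 0.12), with no overlap between neighbours (mean ± SD, n = 3 here and below). In M1 Tlr7 (12.8 ± 0.93) came before Tlr2 (10.7 ± 0.26) and Tlr13 (10.3 ± 0.34), whose ranges overlapped, then Tlr4 (7.23 ± 0.62) and Tlr9 (4.99 ± 0.41). In I the ranges of Tlr7 (17.65 ± 0.70), Tlr13 (17.5 ± 0.55) and Tlr2 (16.3 ± 1.1) overlapped, and Tlr4 (5.51 ± 0.43) and Tlr9 (4.63 ± 0.16) stood well below. Tlr4 and Tlr9 were thus close in I, at 5.05 to 5.92 and 4.45 to 4.76 FPKM.

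**Figure D3:**
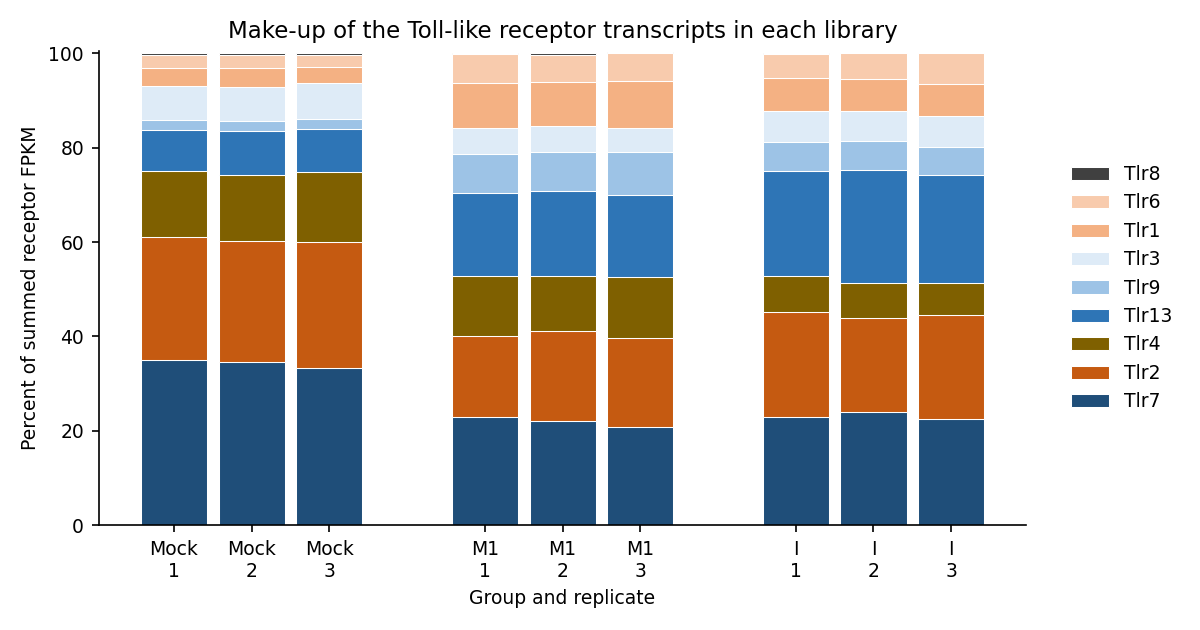
Each library's summed FPKM of the 9 Toll-like receptors in the files, split into the percent held by each receptor, with 1 bar per library. Tlr7 and Tlr2 hold most of the sum in Mock, and the Tlr13 block widens from Mock to M1 to I while the Tlr4 block is narrowest in I.

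The files hold 9 Toll-like receptors, and shares within a library do not depend on any scaling by 1 factor per library (RLE, TMM and upper-quartile, but not quantile scaling). Mock libraries had a sum of 217.6 ± 5.3 FPKM, M1 libraries 58.3 ± 2.5 and I libraries 76.1 ± 1.6. Tlr13 made up 9.02 ± 0.35% of it in Mock, 17.7 ± 0.33% in M1 and 23.0 ± 0.80% in I. Tlr4 held 14.3 ± 0.51%, 12.4 ± 0.60% and 7.23 ± 0.43%, so that its share was lowest in all 3 I libraries. The Tlr2 share was 26.1 ± 0.43% in Mock, 18.3 ± 1.0% in M1 and 21.4 ± 1.2% in I, and that of Tlr7 was 34.3 ± 0.78%, 21.9 ± 1.0% and 23.2 ± 0.72%. The Tlr9 share went from 2.16 ± 0.018% to 8.56 ± 0.53% and 6.08 ± 0.10%. No test was made on these shares.

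**Figure D4:**
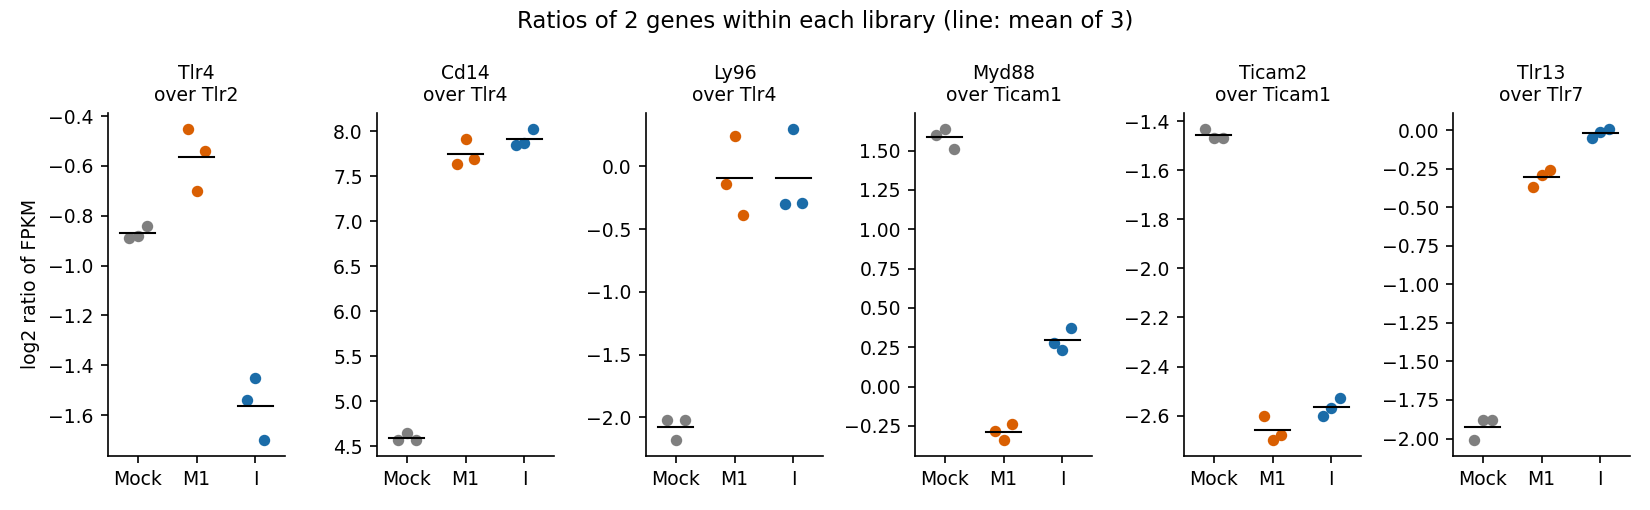
Log2 ratio of the FPKM of 2 genes within each library, with the mean of 3 as a line and a separate vertical axis per pair. The M1 and I libraries lie on either side of the Mock libraries for Tlr4 over Tlr2, and Myd88 over Ticam1 is above 0 in Mock and I and below 0 in M1.

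Ratios of 2 genes within a library likewise do not depend on 1 factor per library and are given as descriptions. Quantile scaling would change them, since in M1 against Mock it moved Cd14 from 1.04 to 0.48 and Tlr4 from −1.97 to −1.83 on the log2 scale. Myd88 exceeded Ticam1 3.00 ± 0.13-fold in Mock. In M1 the ratio was 0.820 ± 0.028, so Ticam1 was the higher of these adaptors, and in I it was 1.23 ± 0.060. The ranges were 2.85 to 3.11, 0.791 to 0.847 and 1.17 to 1.29, with no overlap. Tlr4 stood at 0.548 ± 0.012 of Tlr2 in Mock, 0.678 ± 0.060 in M1 and 0.339 ± 0.030 in I, again without overlap. For the LPS receptor complex, the ratio of Cd14 to Tlr4 was 24.2 ± 0.80 in Mock, 216 ± 22 in M1 and 242 ± 17 in I, where the 2 polarized groups overlapped. Ly96 was at 0.238 ± 0.015 of Tlr4 in Mock and close to an equal level in both polarized groups (0.951 ± 0.21 and 0.952 ± 0.24). Tlr13 was at 0.263 ± 0.014 of Tlr7 in Mock, 0.807 ± 0.032 in M1 and 0.990 ± 0.020 in I. Ticam2 was at 0.364 ± 0.0057 of Ticam1 in Mock, 0.158 ± 0.0058 in M1 and 0.169 ± 0.0044 in I.

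Of 9 further receptors and receptor-like genes listed, 6 were in the files and all 6 fell in M1, with a median of −0.73, beside 55.3% of all genes and a median of −0.23. Tlr8 passed the filter only through Mock (0.84 to 1.09 FPKM, at most 0.17 in M1), so the filter favoured its fall. With a filter on a mean of at least 1 FPKM, the 5 genes left all fell, with a median of −0.64. For this and the following lists, the shares of all genes called higher and lower were 30.5% and 55.3% in M1 and 24.9% and 39.3% in I. Tlr3, the sensor of double-stranded RNA that signals through TRIF, fell from 15.96 ± 0.38 to 3.09 ± 0.19 FPKM (−2.05, limma adjusted p = 6.7e-12) and rose to 4.95 ± 0.15 in I (0.54, limma adjusted p = 2.11e-06). Tlr6, a partner of Tlr2 for diacylated lipopeptides, fell from 5.97 ± 0.32 to 3.46 ± 0.23 FPKM and rose to 4.39 ± 0.47 in I (0.27, limma adjusted p = 0.00503). Ly86, the partner of the receptor-like Cd180, fell from 29.4 ± 0.51 to 12.9 ± 0.60 FPKM. Cd180 fell in both steps, from 28.3 ± 0.70 to 20.1 ± 0.82 and then 16.6 ± 0.36 FPKM. In I against M1, 2 of the 6 rose and 2 fell. The call of Ly86 in I (−0.11, limma adjusted p = 0.0315) was lost under all 4 alternative scalings, and that of Tlr1 in M1 (−0.43) under 2 of them.

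The listed ligand transfer genes and coreceptors, which include separate receptors such as Trem2, moved both ways in M1. Of the 7 in the files 4 rose and 3 fell in M1, and 1 rose and 6 fell in I. RLE, TMM and quantile scaling gave 4 and 2 in M1, and 1 and 5 in I. Trem1, which rose in both steps, passed the filter only through the polarized groups (at most 0.30 FPKM in Mock). The filter thus favoured its rise in M1. Cd36, a scavenger receptor that works with Tlr2, rose from 9.90 ± 0.25 to 125.5 ± 8.6 FPKM in M1 and fell to 30.5 ± 0.30 in I (−2.00, limma adjusted p = 1.01e-10). Itgb2, the shared beta chain of leukocyte integrins, went from 62.0 ± 1.8 to 367 ± 4.9 and then to 217 ± 1.8 FPKM. Trem2, a lipid-binding receptor, fell in both steps, from 19.7 ± 0.61 to 1.34 ± 0.24 and to 0.478 ± 0.0076 FPKM.

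Of 12 trafficking and folding genes, 4 rose and 4 fell in M1, and 4 rose and 7 fell in I. RLE and TMM scaling both turned the M1 split to 9 higher and 2 lower, and upper-quartile scaling to 8 and 2. Unc93b1, which carries endosomal Toll-like receptors out of the endoplasmic reticulum, rose from 154 ± 1.2 to 192 ± 6.0 FPKM (0.31, limma adjusted p = 4.5e-07), a call that 1 of the 4 alternative scalings did not keep. In I it fell to 122 ± 1.0 (−0.65, limma adjusted p = 8.57e-09). Hsp90b1, the chaperone that folds most Toll-like receptors, fell in M1 (−1.48) and was not called in I. Slc15a3, an endolysosomal peptide and histidine transporter, rose from 20.9 ± 0.61 to 232 ± 4.8 FPKM and was at 196 ± 1.9 in I. Tasl, which links endosomal receptors to Irf5, fell from 17.2 ± 0.60 to 4.89 ± 0.52 FPKM and rose to 8.87 ± 0.043 in I. All 5 proteases that can process endosomal receptors rose in M1, except under quantile scaling, which gave 4 higher and 1 lower. Ctsk, among the 5, passed the filter only with the polarized groups (0.36 to 0.645 FPKM in Mock, 0.78 to 0.91 in M1). The filter thus favoured its rise. With a filter on a mean of at least 1 FPKM, the 4 proteases left all rose. Of the 5 proteases, Ctsb and Ctsl fell in I (−0.34 and −0.44) and Lgmn rose again (0.42).

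**Figure D5:**
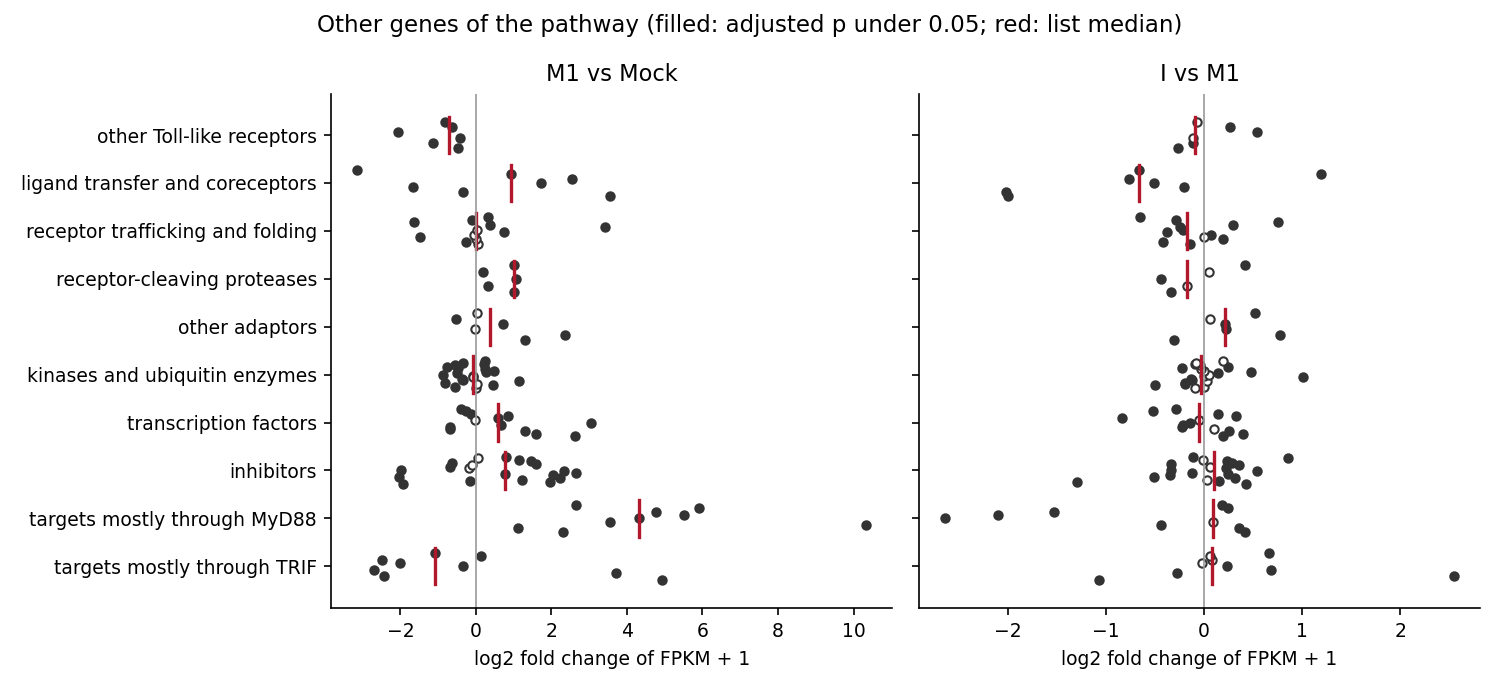
Log2 fold change (FPKM + 1) of the other pathway genes by list, in M1 against Mock and in I against M1, with the list median in red and genes with an adjusted p under 0.05 filled. The horizontal axes differ, and the targets reached mostly through MyD88 lie furthest to the right in M1. Among these targets, Il1a, Il1b, Il6 and Csf3 passed the filter on low values only through the polarized groups.

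Downstream of the receptors, 3 of 6 other adaptors rose and 1 fell in M1 (5 and 1 with RLE scaling), and 4 rose and 1 fell in I. Scimp, a transmembrane adaptor that binds Toll-like receptors, rose in both steps, from 25.5 ± 1.1 to 136 ± 3.0 and then 233 ± 2.2 FPKM. Traf6, the ubiquitin ligase below Myd88, was at 7.75 ± 0.19 FPKM in Mock and 7.94 ± 0.18 in M1, and rose to 11.9 ± 0.37 in I (0.52, limma adjusted p = 6.48e-07). Among 21 kinases and ubiquitin enzymes 7 rose and 11 fell in M1, and 4 rose and 6 fell in I. The shares in M1 are close to those of all genes. With RLE scaling these counts were 11 and 8 in M1, and 8 and 3 in I. Ube2v1, among those that rose in M1, passed the filter only through the polarized groups (at most 0.40 FPKM in Mock). Irak2 rose in M1 from 21.75 ± 0.26 to 49.4 ± 0.48 FPKM. Map3k8, the kinase that drives ERK signalling below Toll-like receptors, was at 4.59 ± 0.16 FPKM in Mock and 4.30 ± 0.28 in M1 and rose to 9.66 ± 0.52 in I (1.01, limma adjusted p = 7.16e-08). Ikbke, the interferon-inducing kinase, rose in M1 (0.46) and fell in I (−0.50).

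Of 13 transcription factors 7 rose and 5 fell in M1 (9 and 3 with RLE scaling), and 5 rose and 6 fell in I. Irf8 rose from 31.4 ± 0.50 to 269 ± 9.0 FPKM in M1 and Atf3, an inhibitor of Toll-like receptor target genes, from 59.8 ± 0.92 to 374 ± 7.7. Nfkb2 rose in M1 (0.59) and fell in I (−0.84). Among 20 inhibitors 11 rose and 6 fell in M1, and 10 rose and 7 fell in I (13 and 5, and 12 and 5, with RLE scaling). Nrros, an inhibitor that binds Toll-like receptors in the endoplasmic reticulum, fell from 72.4 ± 1.1 to 17.4 ± 0.48 and then to 13.6 ± 0.36 FPKM. Tnip3, a partner of the A20 deubiquitinase, was at 11.5 ± 0.20 in Mock and 12.0 ± 0.59 in M1 and rose to 22.6 ± 0.17 FPKM in I (0.86, limma adjusted p = 1.3e-08).

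Of 13 listed targets reached mostly through MyD88, 9 were in the files. All 9 rose in M1, with a median of 4.31, and Myd88 itself fell. Il1a, Il1b, Il6 and Csf3 passed the filter on low values only through the polarized groups. Their Mock libraries were at most at 0.15, 0.26, 0.35 and 0.67 FPKM, so the filter favoured a rise of these genes. The median of 4.31 is the value of Il1a. The targets that did not depend on the polarized groups for the filter rose by 1.12 to 5.92. In I 4 of the 9 targets rose and 4 fell. Of 9 targets reached mostly through TRIF, 3 rose and 6 fell in M1, with a median of −1.08, and Ticam1 rose. That split was 3 and 5 with RLE and TMM scaling, and 2 and 7 with quantile scaling. Ifnb1, among those that fell, passed the filter through Mock alone (5.09 to 6.33 FPKM, at most 0.60 in M1 and 0.44 in I). In I 4 of the 9 TRIF targets rose and 2 fell. Ccl5, a chemokine of this group, rose from 36.1 ± 4.2 to 1120 ± 27 FPKM in M1 and fell to 534 ± 21 in I. Rsad2, an antiviral enzyme, fell in M1 (−1.08) and rose in I (0.66). The assignment of targets to a branch is general knowledge, many respond to both and to interferon gamma, and the difference between the branches was not tested. A link between the RNA level of an adaptor and its targets was not tested either.

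The genes nearest to each member were taken by the Euclidean distance over the log2 fold changes of M1 against Mock and of I against M1, among 6699 genes with a mean of at least 5 FPKM. Tlr2 had no gene within 0.1, and its nearest were Csf1r, the macrophage growth factor receptor (distance 0.11, at −2.28 and 0.46), and CYTB (distance 0.12). Tlr7 had 1 gene within 0.1, Cldn11, followed by Rnf213 at 0.12. Tlr13 had 8, the nearest being Ctse (0.042) and Mideas (0.057), and Tlr4 had 10, led by Umps (0.024) and the inhibitor Nrros (0.028). Myd88 was nearest to Ecpas (0.021) and I830077J02Rik (0.029), and Ticam1 to Esrra (0.026) and Rbms2 (0.035). Cd14 was nearest to Higd2a and Pqlc3, Ly96 to Spcs3 and Fibp, Tlr9 to Slain2 and Commd8, and Ticam2 to Mospd3 and Rnf41. Genes with small changes have many neighbours, 163 within 0.1 for Tlr9 and 147 for Ticam2.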

How the data were processed

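Poly(A)-selected RNA of 9 libraries was analysed from 1 table per library. Each value is an FPKM as deposited by the authors, a unit read from the values because no header names it. The submitters' processing notes name featureCounts 2.0.1, HISAT2 2.2.1, fastp 0.20.1 and the GRCm38 build. What settings, strandedness and annotation they had is not given in the sources used here. No listed gene has a value of 0, and undetected genes are not analysed here. Of 12474 rows, 12204 (97.8%) matched a gene length in GENCODE vM21, and FPKM times length gave whole fragments (within 0.05) in 98.4% to 98.6% of values, which gives the depth.

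Rows with at least 0.5 FPKM in at least 3 libraries (11156) were fitted with limma 3.58.1 in R 4.3.3 on log2(FPKM + 1), with 1 term per group, an intensity trend and Benjamini-Hochberg adjustment over all rows. The plan allowed for counts, but the files hold FPKM. The fit was tested on simulated data. The members, the 10 pathway lists and the motifs were chosen with earlier results of these data known. Named pathway genes are drawn from up to 3 per list with the smallest p in M1 vs Mock and in I vs M1. A part of these is given. Tlr1, Tlr8, Ifnb1, Trem1, Ctsk and Ube2v1 were named in addition, after their values were seen. Alternatives were 4 scalings, another pseudocount (0.1), 2 filters, no trend, only the 2 groups compared, limma-voom on recovered fragments, a replicate block and leaving out each library.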

Additional observations from a re-analysis of the deposited data

How the results depend on the processing

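The values of Tlr2, Tlr4, Tlr7 and Cd14 in all 3 comparisons, of Tlr13 and Myd88 in the first 2 and of Ticam1 against Mock kept their direction and call under all 20 alternatives. Over all member values, 544 of 600 recomputed ones kept the call, and 27 changed sign. Leaving out a library of the group not compared cannot change the fold change, so the recomputed values are not all separate checks. Counts moved with scaling. In M1 against Mock, 4 genes were higher with RLE, TMM and quantile scaling (2 without). In I against Mock, 5 were higher with RLE and TMM and 4 with quantile scaling (2 without), and 3 were lower with RLE and TMM and 4 with upper-quartile and quantile scaling (7 without), while 4762 of all genes were higher with RLE and 4825 with TMM (3146 without). In the order RLE, TMM, upper-quartile and quantile, the log2 values that changed sign were, in M1 against Mock, Ly96 0.15, 0.16, 0.04 and 0.20 and Ticam2 0.14, 0.15, 0.04 and 0.27. In I against M1 they were Ticam2 0.04, 0.05, 0.01 and 0.04. In I against Mock they were Tlr9 0.29, 0.30, 0.16 and 0.40, Tlr13 0.20, 0.21, 0.04 and 0.03, Ticam2 0.18, 0.19, 0.05 and 0.31, and Myd88 0.04 (RLE) and 0.06 (TMM). With each library left out in turn, Tlr9 in I against Mock ranged from −0.04 to 0.00, the latter without I replicate 3. Which scaling is right was not tested. Tlr9 was called without M1 replicate 2, at 0.12 in M1 against Mock (limma adjusted p = 0.0443) and −0.14 in I against M1 (0.0339), and Ticam2 lost its call in I against Mock without Mock replicate 3 (0.0652). Replicate numbers did not pair the libraries: the best match in another group had the same number in 6 of 18 cases. With a replicate block, 3396 genes were higher and 6152 lower in M1 against Mock and 2713 and 4319 in I against M1, Ticam2 lost its call in M1 against Mock (limma adjusted p = 0.0513) and Ly96 gained one in I against M1 (0.0468). Depth limits Ly96 and Tlr9 most, and genes at 0 were not analysed here.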
